A study of Arabidopsis thaliana with 27 samples.

Results

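Methyl jasmonate (MeJA) and salicylic acid (SA) were compared at matched times on 8 of the 27 arrays of a study of Arabidopsis thaliana plants sprayed with 6 defence-related agents. The 4 arrays titled for JA, whose source label reads MeJA at 0.1 mM, were set against the 4 arrays of 5 mM SA, with 1 array of each hormone at 2, 5, 10 and 24 h after spraying. All plants were of the Columbia ecotype, 28 days old and grown in soil, and sprayed plants were kept humid until harvest. The labels call the harvested tissue both leaves and the whole plant without its root. Sprayed-plant RNA was labelled with Cy5 on every array, and untreated plants raised alongside supplied the Cy3 channel. No dye swap was made and no mock spray is described, so each value is the log ratio of sprayed over untreated plants. A constant dye effect and any effect of spraying that both hormones share cancel in MeJA minus SA, and the doses differ. Material from repeat experiments was combined ahead of the extraction, so each hormone and time is 1 pool on 1 array, and whether arrays shared untreated RNA is not stated.

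Jasmonates are lipid-derived hormones released on wounding and insect feeding. They act through the receptor subunit COI1, which directs JAZ repressors to degradation and frees MYC transcription factors to induce defence proteins. Salicylic acid accumulates on infection by biotrophic pathogens and acts through NPR1 and its relatives with TGA factors. The hormones are known for mutual antagonism in leaves, SA holding back many jasmonate-induced genes, alongside genes that respond to both. The design asks which genes the hormones moved in opposite directions and when, and which they moved together.

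The array carried 416 named genes, spotted in pairs except TUA5, and 263 to 360 of them had a value on each of the 8 arrays. Every array was centred on its median, so a value of 0 is the level of the middle spot and not the absence of change. The deposited medians were 0.669 to 1.03 on the SA arrays and -0.06 to 0.749 on the MeJA arrays. For calls across times, 180 genes with enough values were fitted with limma over all 24 agent and time conditions, and a gene was called at an adjusted p (Benjamini-Hochberg over the 180) under 0.05. Means are over 4 times, 1 array each. Their standard error (SE) comes from the spread that all agents share in the fit, and not from the scatter of that hormone's own 4 arrays. The SE and the p-values rest on the scatter left after agent and time effects, part of which may be technical. Values are log2 ratios if the deposited logarithm, whose base is not stated, has base 2, so 1 unit is then a 2-fold ratio. Repeat arrays of the same RNA, made for other agents, differed by a median of 0.359 to 0.411 per gene, with 5.85% to 9.88% of genes past 1. The alpha-tubulin gene TUA5, on 54 spots, stood at -0.18, -1.01, -1.33 and -1.17 on the MeJA arrays of 2, 5, 10 and 24 h and at -1.09, -1.16, -1.15 and -1.25 on the SA arrays. The MeJA 2 h array stood apart from the other 7 in this gene. Taking TUA5 as 0 instead moved the median gene to 0.88 for MeJA and 1.22 for SA, and uncentred values put it at 0.25 and 0.85. The sign of a single hormone's value is therefore relative to the array's median, and the opposed genes whose sign turns under TUA5 centring are named as such. Since the values are ratios, no level of a leaf or root marker can be read from them, and fewer cells of a type cannot be told apart from less RNA per cell. Of 20 markers of root, seed, flower or trichome listed, PYK10 alone was on the array.

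MeJA and SA differed in 105 of the 180 genes, 58.3% of those tested. Of these, 47 genes (26.1%) were higher under MeJA than under SA and 58 (32.2%) were lower. The median size of the difference was 0.87 over all 180 genes, and its 95% interval reached a median of 0.62 to either side. In 92 of the 105 the sign was the same at every time at which both hormones were measured, as it was in 113 of all 180. The call itself favours 1 sign, so this count is a description. Against untreated plants, 131 genes (72.8%) passed under SA and 83 (46.1%) under MeJA, with 60 genes past the threshold under both. The 60 split into 39 shared genes (21.7% of those tested) that moved the same way and 21 opposed genes (11.7%) that moved in opposite directions. A further 71 genes passed under SA without passing under MeJA, and in 51 of them the difference between the hormones was itself called. Of the 23 genes that passed under MeJA but not under SA, the difference was called in 13. In uncentred values 75 differences were called, 13 higher and 62 lower, and 70 of the 105 were among them.

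**Figure D1:**
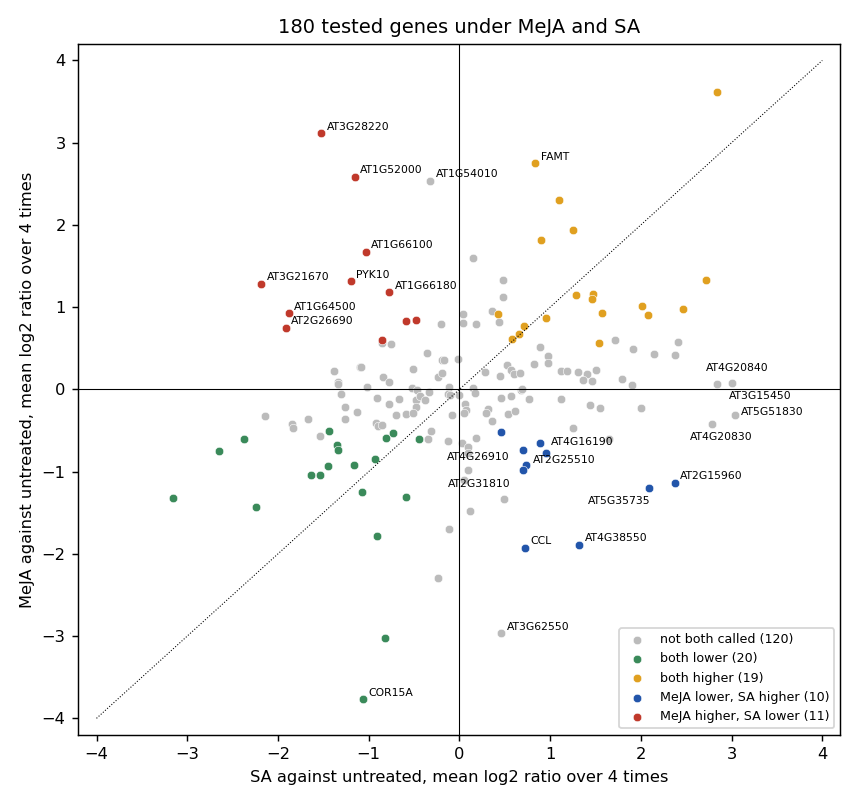
Mean log2 ratio against untreated plants over 4 times under SA (horizontal axis) and MeJA (vertical axis) for the 180 tested genes, coloured by whether both hormones passed adjusted p 0.05 and in which directions. Opposed genes lie at upper left (11) and lower right (10) and shared genes at upper right (19) and lower left (20); the axes' zero is each array's median, and centring on TUA5 leaves 4 of the 21 opposed genes opposed.

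The 11 genes raised by MeJA and lowered by SA (6.11% of the 180) were led by AT3G28220, AT1G52000 and AT3G21670. In 6 of the 11 the SA mean lay above 0 with TUA5 as 0. The 11 held a pair of nitrate and peptide transporter family members, a pair of ER-body beta-glucosidases, and the growth gene EXO. Loci without a symbol in the annotation used here are given by their number alone.

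AT3G28220 read 4.49, 3.37, 2.19 and 2.41 on the MeJA arrays of 2, 5, 10 and 24 h and -1.07, -1.47, -2.57 and -0.98 on the SA arrays of the same times. Every MeJA array was high and every SA array low, with no overlap, and the 2 h MeJA array was the highest. The mean was 3.12 ± 0.32 under MeJA and -1.52 ± 0.32 under SA, a difference of 4.64 ± 0.45 or 24.9-fold (limma adjusted p 2.4e-08). With TUA5 as 0 the SA mean of AT3G28220 was -0.36 and did not pass (limma adjusted p 0.35), so the gene was not opposed on that scale. AT1G52000 read 3.47, 2.27, 2.34 and 2.28 under MeJA and -1.95, -1.21, -0.86 and -0.58 under SA. Its SA values were lowest at 2 h and nearest 0 at 24 h, and the groups did not overlap. Its difference was 3.74 ± 0.36 or 13.3-fold (limma adjusted p 3.2e-08), but with TUA5 as 0 the SA mean was 0.01, no longer below 0.

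Of the listed family of nitrate and small-peptide transporters, 2 members were on the array, and both were opposed. AT3G21670 (NPF6.4) read 1.27, 0.69 and 3.03 on the MeJA arrays of 2, 5 and 24 h, with no value at 10 h, and -1.56, -2.38, -3.65 and -1.16 on the SA arrays. The lowest value of all was that of SA at 10 h, the time at which MeJA has no value. The fit kept that SA value and lacked MeJA at 10 h, and the difference was 3.47 ± 0.58 or 11.1-fold (limma adjusted p 3.9e-05). AT2G26690 (NPF6.2) read 1.02, 0.42, 0.06 and 1.5 under MeJA and -1.94, -2.15, -2.47 and -1.1 under SA. The SA values were low throughout, while the MeJA values were clearly above 0 at 2 and 24 h and near 0 at 10 h. The difference was 2.67 ± 0.26 or 6.35-fold (limma adjusted p 2.4e-08), and both genes stayed opposed under each of the 4 other scalings tried.

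PYK10 encodes the main beta-glucosidase of ER bodies, the organelles in which Brassicaceae store enzymes that act on defence glucosides. It read -0.05, 1.72, 1.52 and 2.06 on the MeJA arrays and -1.24, -1.21, -1.55 and -0.8 on the SA arrays, and every MeJA value lay above every SA value although MeJA was near 0 at 2 h. The difference was 2.51 ± 0.51 or 5.7-fold (limma adjusted p 2e-04), but with TUA5 as 0 the SA mean was -0.04 (limma adjusted p 0.94). BGLU22, a close homologue, read -0.03, 1.04, 1.09 and 1.27 under MeJA and -0.73, -0.46, -0.53 and -0.2 under SA. It too was near 0 at 2 h of MeJA and above 1 from 5 h on, with no overlap between hormones. Its difference was 1.32 ± 0.25 (limma adjusted p 0.00011), or 0.82 in uncentred values (adjusted p 0.15). Its SA mean of -0.48 ± 0.18 turned to 0.68 with TUA5 as 0 and to 0.31 in uncentred values. Spotted cDNAs of such homologues can share signal, so separate responses of PYK10, BGLU22 and BGLU21 cannot be told apart from shared signal.

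AT1G64500 read 0.95, -0.06, 0.71 and 2.1 under MeJA and -1.38, -2.32, -2.89 and -0.92 under SA. MeJA was near 0 at 5 h, and SA reached its lowest value at 10 h, with no overlap. The difference was 2.8 ± 0.41 or 6.98-fold (limma adjusted p 5.1e-06), but with TUA5 as 0 the SA mean of -0.71 did not pass (limma adjusted p 0.078). AT1G66100 read 2.08, 1.43, 1.23 and 1.95 under MeJA and -0.18, -0.9, -1.65 and -1.4 under SA. The SA value was near 0 at 2 h and below -1 at 10 and 24 h, with no overlap. The difference was 2.71 ± 0.51 (limma adjusted p 0.00011), while its SA mean turned to 0.13 with TUA5 as 0. AT1G66180 read 0.97, 0.96, 1.43 and 1.36 under MeJA and -0.67, -0.95, -1.13 and -0.34 under SA, a difference of 1.95 ± 0.25 (limma adjusted p 1.5e-06). Its values varied little over time and did not overlap between hormones, but its SA mean turned to 0.39 with TUA5 as 0 and 0.02 uncentred.

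The remaining pair were scpl48, a serine carboxypeptidase-like gene, and EXO (EXORDIUM), a brassinosteroid-responsive gene that promotes leaf growth. They were named after their values were seen. The values of scpl48 were 0.55, 0.24, 0.28 and 1.34 under MeJA and -1.06, -0.94, -1.0 and -0.43 under SA, with a difference of 1.46 ± 0.27 (limma adjusted p 7.9e-05). EXO read 1.16, 0.54, 0.65 and 0.97 under MeJA and 0.6, -0.28, -1.39 and -1.28 under SA, with a difference of 1.42 ± 0.36 (limma adjusted p 0.0017). EXO was above 0 under SA at 2 h and below -1 at 10 and 24 h, so its groups overlapped. With TUA5 as 0 the SA means of scpl48 and EXO turned to 0.31 and 0.58.

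**Figure D2:**
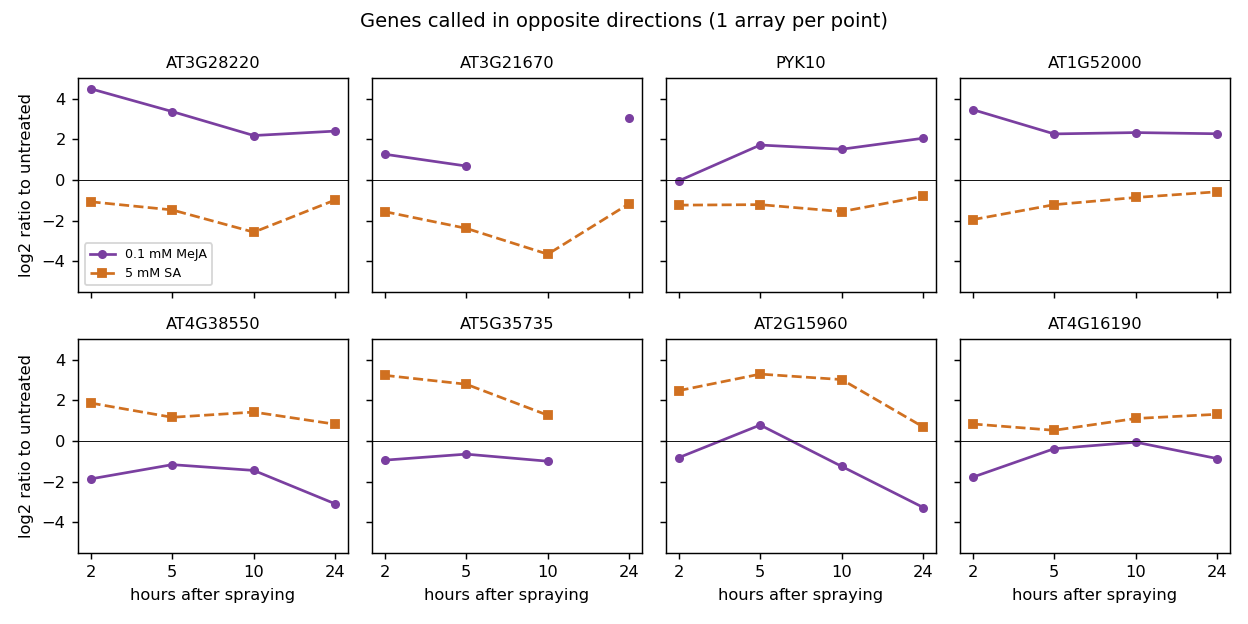
Log2 ratio to untreated plants on each MeJA (solid) and SA (dashed) array at 2, 5, 10 and 24 h (times evenly spaced, not to scale) for 4 genes raised by MeJA and lowered by SA (top) and 4 of the opposite kind (bottom), with 1 array per point. MeJA lies on 1 side of SA at every time in all 8 genes; gaps are missing values, the zero line is each array's median, and with TUA5 as 0 the SA mean of AT1G52000 and the MeJA mean of AT4G16190 turn above 0.

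The 10 genes lowered by MeJA and raised by SA (5.56% of the 180) were led by AT2G15960, AT5G35735 and AT4G38550, and in 5 of the 10 the MeJA mean lay above 0 with TUA5 as 0. AT4G38550 stayed opposed in all 24 alternatives tried, which held for 1 of the 21 opposed genes. It read -1.86, -1.16, -1.45 and -3.09 on the MeJA arrays of 2, 5, 10 and 24 h and 1.87, 1.17, 1.43 and 0.83 on the SA arrays. Every MeJA array was low and every SA array high, with MeJA lowest and SA least raised at 24 h. The means were -1.89 ± 0.21 and 1.32 ± 0.21, a difference of -3.22 ± 0.29 or 9.29-fold (limma adjusted p 1.9e-08).

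AT2G15960 read -0.82, 0.79, -1.25 and -3.27 under MeJA and 2.48, 3.3, 3.03 and 0.69 under SA. The 5 h MeJA value was above 0 and above the 24 h SA value, so the groups overlapped across times but not within a time. The difference was -3.51 ± 0.36 or 11.4-fold (limma adjusted p 1.1e-07). AT5G35735 read -0.94, -0.64 and -0.99 under MeJA at 2, 5 and 10 h and 3.24, 2.8 and 1.27 under SA, with no value at 24 h for either hormone. SA was highest at 2 h and the groups did not overlap. The fit without the 24 h arrays gave a difference of -3.29 ± 0.41 or 9.81-fold (limma adjusted p 1.5e-06).

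CCL, annotated as CCR-like after a family of clock-regulated transcripts, read -3.04, 0.26, 0.06 and -4.96 under MeJA and 0.08, 1.54, 1.54 and -0.28 under SA. MeJA was far below 0 at 2 and 24 h and near 0 at 5 and 10 h, and SA too was lower at 2 and 24 h than at 5 and 10 h, so the groups overlapped across times. The difference was -2.64 ± 0.44 or 6.25-fold (limma adjusted p 3e-05), and MeJA was below SA at every time.

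AT4G16190 read -1.78, -0.38, -0.06 and -0.87 under MeJA and 0.84, 0.53, 1.11 and 1.32 under SA, a difference of -1.72 ± 0.29 (limma adjusted p 4.1e-05). AT2G25510 read -1.93, -1.11, 0.18 and -0.82 under MeJA and 0.14, 0.06, 0.87 and 1.87 under SA, a difference of -1.65 ± 0.35 (limma adjusted p 0.00038). In both genes MeJA was lowest at 2 h and SA highest at 24 h, and AT2G25510 overlapped between hormones. AT2G31810 read -1.24, -0.1, -1.31 and -1.29 under MeJA and 0.55, 0.66, 1.03 and 0.57 under SA, a difference of -1.69 ± 0.33 (limma adjusted p 0.00016). AT4G26910 read -0.62, -0.61, -0.74 and -0.96 under MeJA and 0.77, 1.04, 0.65 and 0.35 under SA, a difference of -1.43 ± 0.23 (limma adjusted p 2.2e-05). AT2G31810 and AT4G26910 changed little from time to time, apart from a MeJA value of AT2G31810 near 0 at 5 h, and their groups did not overlap. With TUA5 as 0 the MeJA means turned above 0 for AT4G16190 (0.15), AT2G25510 (0.01) and AT4G26910 (0.19). The last pair of the 10, AT5G43450 and AT1G29310, had differences of -1.54 ± 0.34 and -0.98 ± 0.25 (limma adjusted p 0.00051 and 0.0016) and were named after their values were seen. With TUA5 as 0 their MeJA means were 0.28 and 0.41.

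All 21 opposed genes passed the test of the difference, with 1 sign at every time measured in both hormones. In 14 of the 21 the signs themselves were opposite at all such times. The genes were chosen for means of opposite sign that each passed in the same fit, which favours a called difference and 1 sign. These counts therefore describe the choice and are not separate evidence of opposition. Centring on TUA5 left 4 of the 21 opposed (AT3G21670, AT2G26690, AT4G38550 and CCL) and the uncentred values left 7. The difference stayed called in 21 and 18 of the 21. CCL, opposed in 15 of the 24 alternatives, was not opposed under scaling to 1 median absolute deviation or quantile normalization. Without the 24 h conditions 12 genes were opposed, and without a term for time 8 were.

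Several of the largest differences came from genes in which 1 hormone alone passed the test. AT5G51830, AT4G20830, AT4G20840 and AT3G15450 rose under SA and stood nearer the array median under MeJA, and AT1G54010 rose and AT3G62550 fell under MeJA.

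AT5G51830 read 4.44, 3.85, 2.28 and 1.61 on the SA arrays of 2, 5, 10 and 24 h and 0.23, -0.21, -1.19 and -0.06 on the MeJA arrays. SA read lower at each later time and still lay above every MeJA array at 24 h. The SA mean was 3.04 ± 0.34 and the MeJA mean -0.31 ± 0.34 (limma adjusted p 0.48). With TUA5 as 0 the MeJA mean turned to 0.62. The difference was -3.35 ± 0.48 or 10.2-fold (limma adjusted p 4.8e-06). AT4G20830 and AT4G20840 are neighbouring loci placed here in the list of berberine bridge enzyme-like oxidases. AT4G20830 read 4.1, 3.25, 2.28 and 1.49 under SA and -0.16, -0.07, -0.76 and -0.69 under MeJA, a difference of -3.2 ± 0.4 or 9.19-fold (limma adjusted p 1.1e-06). AT4G20840 read 4.0, 3.23, 2.51 and 1.62 under SA and -0.63, 0.15, 0.72 and 0.05 under MeJA, a difference of -2.77 ± 0.38 or 6.82-fold (limma adjusted p 3e-06). Both were highest at 2 h of SA, read lower at each later time and did not overlap between hormones. Shared signal between neighbours of like sequence on a cDNA array cannot be told apart from separate responses.

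AT3G15450 read 3.83, 3.07, 3.65 and 1.48 under SA and 1.71, 2.44, -1.4 and -2.42 under MeJA. MeJA was above 0 at 2 and 5 h and below 0 at 10 and 24 h, so its mean of 0.08 ± 0.38 (limma adjusted p 0.87) averages opposite values. The groups overlapped across times, and the difference was -2.93 ± 0.53 or 7.6-fold (limma adjusted p 7.9e-05). AT1G54010 (GLL23), a GDSL-like lipase, read 1.85, 2.76, 2.6 and 2.94 under MeJA and -0.74, -0.73, -0.01 and 0.2 under SA. MeJA was high from 2 h on and SA moved from below 0 to just above it, with no overlap. The SA mean was -0.32 ± 0.23 (limma adjusted p 0.22), or 0.47 uncentred. With TUA5 as 0 it was 0.84 and passed (limma adjusted p 0.01), so both hormones raised the gene on that scale. The difference was 2.86 ± 0.32 or 7.24-fold (limma adjusted p 2.2e-07). AT3G62550 read -4.51, -0.57, -1.58 and -5.21 under MeJA and -0.39, 0.61, 1.54 and 0.06 under SA, a difference of -3.43 ± 0.49 or 10.8-fold (limma adjusted p 7.5e-06). As in CCL, the MeJA values at 2 and 24 h were far lower than those at 5 and 10 h, and the groups did not overlap.

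**Figure D3:**
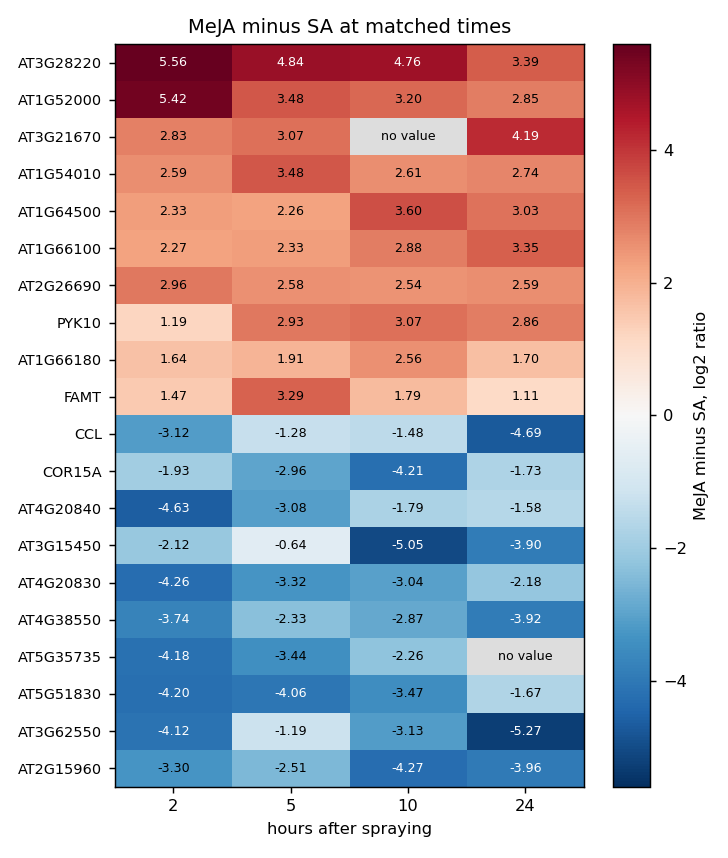
MeJA minus SA (log2 scale, colour) at 2, 5, 10 and 24 h, 1 pair of arrays each, for the 10 highest and 10 lowest called differences with 1 sign at all measured times; grey cells have no value. Each gene was chosen for its 1 sign, so the even colour along a gene describes the choice, and no difference of these 20 genes changed direction under the 4 other scalings.

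The 39 shared genes comprised 19 raised (10.6% of the 180) and 20 lowered (11.1%) by both hormones, a split that was 96 and 0 with TUA5 as 0 and 29 and 2 uncentred. The raised genes included PPDK and FDH, enzymes of pyruvate and formate metabolism, and AT5G05600. The lowered genes included the cold-regulated gene COR15A and DRT100. In 18 of the 39 the size still differed between the hormones, and in 21 the difference did not pass. Dye, spraying or humidity effects common to both hormones do not cancel against untreated plants. They cannot be told apart here from a shared response to the hormones.

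AT5G05600 read 3.73, 4.43, 2.6 and 3.71 under MeJA and 3.58, 2.65, 2.19 and 2.95 under SA. All 8 arrays were above 2, MeJA lay above SA at each time, and the groups overlapped. The means were 3.62 ± 0.26 and 2.84 ± 0.26, and the difference of 0.78 ± 0.37 did not pass (limma adjusted p 0.073, 95% interval 0.01 to 1.54). PPDK, pyruvate orthophosphate dikinase, read 1.67, 2.26, 1.79 and 3.49 under MeJA and 0.46, 0.99, 1.35 and 1.57 under SA. Values were higher at each later time apart from 10 h of MeJA, and the groups did not overlap. MeJA was higher by 1.21 ± 0.33 (limma adjusted p 0.0037), which did not pass in uncentred values (0.71, adjusted p 0.24). FDH, formate dehydrogenase, read 0.57, 1.61, 0.68 and 1.75 under MeJA and 0.34, 1.4, 1.49 and 1.92 under SA, with a difference of -0.14 ± 0.26 (limma adjusted p 0.65, 95% interval -0.68 to 0.41). Its values were lowest at 2 h and highest at 24 h under both hormones.

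AT2G18690 read 1.14, 0.94 and 1.48 under MeJA at 2, 5 and 24 h, with no value at 10 h, and 3.84, 2.32, 2.51 and 2.19 under SA. SA was higher throughout, with MeJA minus SA at -1.38 ± 0.39 (limma adjusted p 0.0043), and the groups did not overlap. Without the 2 h conditions this difference was -0.91 (limma adjusted p 0.055). AT5G14120 read 2.57, 2.89, 1.51 and 0.8 under MeJA and 1.4, 1.32, 1.74 and 0.54 under SA. Both were lowest at 24 h, and the difference of 0.69 ± 0.3 was at the threshold (limma adjusted p 0.049) and did not pass in most alternatives, as without the 5 h conditions (0.4, adjusted p 0.32). AT1G66760 read 2.19, 1.88, -0.21 and 0.75 under MeJA and 2.28, 1.92, 1.18 and 0.52 under SA. The hormones read close to each other at 2 and 5 h, MeJA was below 0 at 10 h, and the difference of -0.32 ± 0.3 did not pass (limma adjusted p 0.36, 95% interval -0.95 to 0.31).

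COR15A, a cold-regulated gene whose product protects chloroplast membranes in freezing, read -1.17, -3.28, -5.76 and -4.86 under MeJA and 0.75, -0.33, -1.55 and -3.13 under SA. Both read lower at 10 and 24 h than at 2 and 5 h, MeJA lay below SA at each time, and the groups overlapped across times. The difference was -2.71 ± 0.51 or 6.53-fold (limma adjusted p 0.00011), and without a term for time it did not pass. DRT100 read -1.72, -1.45, -1.69 and -0.88 under MeJA and -1.85, -2.3, -3.18 and -1.61 under SA, with a difference of 0.8 ± 0.35 (limma adjusted p 0.053, 95% interval 0.08 to 1.53). AT1G29660 read -1.38, -1.28, -2.11 and -0.51 under MeJA and -2.26, -3.44, -4.04 and -2.9 under SA, with a difference of 1.84 ± 0.36 (limma adjusted p 0.00014). Both genes were lowest at 10 h under SA, and AT1G29660 did not overlap between hormones. AT3G61260, AT1G61180 and AT3G20820 were lowered with differences of -0.18 ± 0.26, 0.59 ± 0.36 and 0.5 ± 0.24 that did not pass (limma adjusted p 0.54, 0.16 and 0.071). Their MeJA means were -1.25 ± 0.19, -1.05 ± 0.26 and -1.04 ± 0.17, beside SA means of -1.07 ± 0.19, -1.64 ± 0.26 and -1.54 ± 0.17.

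Which genes count as lowered by both depends on where 0 is set. All 19 genes raised by both were still raised by both with TUA5 as 0 and in uncentred values, whereas 0 and 2 of the 20 lowered genes were still lowered by both. TUA5 itself was among the 20, at -0.92 ± 0.17 under MeJA and -1.16 ± 0.17 under SA (MeJA minus SA 0.24 ± 0.23, limma adjusted p 0.37). Of the 39 shared genes, 9 kept their class in every alternative in which they were tested.

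Of 44 genes listed for jasmonate synthesis, signalling and output, 9 were on the array and 6 were tested. All 6 rose under MeJA (22.2% of all tested genes did), and 5 were higher under MeJA than under SA, against 26.1% of all tested genes. The list's median difference was 2.78, beside -0.07 over all 180 genes. All but FAMT are described above, among them AT3G28220 and AT5G05600. Several were listed with earlier results of these arrays known, so the count is a description. The other gene lists were also drawn up with those results known, so their counts are descriptions too. FAMT, a methyltransferase that acts on farnesoic acid, read 2.6, 3.55, 2.58 and 2.27 under MeJA and 1.14, 0.26, 0.79 and 1.16 under SA, so both hormones raised it, MeJA was higher at every time and the groups did not overlap. The difference was 1.91 ± 0.35 or 3.76-fold (limma adjusted p 7.9e-05).

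The other 3 jasmonate genes had too few values for the test. JMT, which converts jasmonic acid to MeJA, read 0.29, 0.38 and 1.2 under MeJA at 2, 10 and 24 h and 0.62 and 0.56 under SA at 2 and 10 h. The thionin gene THI2.1, a jasmonate-induced antimicrobial peptide, read 0.36, 0.55 and 0.14 under MeJA at 2, 5 and 10 h and -0.49, -1.15, -1.55 and -1.69 under SA at the 4 times. It was above 0 on each MeJA array and below 0 on each SA array. AT2G38240 read 5.93 and 2.69 under MeJA at 2 and 5 h and 1.62, 0.74, 1.68 and 2.0 under SA. Its 2 h MeJA value was the highest of the gene, and both hormones stood above 0 on every array measured.

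Of 37 genes listed for salicylate synthesis, signalling and output, 4 were on the array, and all 4 were lower under MeJA than under SA, with a median difference of -1.65 (32.2% of all tested genes were lower). AT4G38550 and AT2G18690 are described above. AT5G64120 (PRX71), a secreted peroxidase, read 2.15, 1.14, 3.05 and 3.52 under SA and 0.73, 0.86, 0.55 and 1.78 under MeJA. Both hormones raised it, SA was higher at each time, the groups overlapped across times, and the difference was -1.48 ± 0.37 (limma adjusted p 0.0016). ECS1 read -1.88, -1.45, -0.61 and -1.4 under MeJA and 0.18, -0.18, 0.81 and 1.15 under SA. It fell under MeJA, where every array was below every SA array, and did not pass under SA (0.49 ± 0.24, limma adjusted p 0.065), and the difference was -1.82 ± 0.33 (limma adjusted p 7.9e-05).

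Of 22 ethylene genes listed, 2 were tested, and neither passed the test of the difference. EIN3, the transcription factor at the end of the ethylene pathway, had a difference of -0.19 ± 0.25 (limma adjusted p 0.5, 95% interval -0.71 to 0.32). AT5G61590 (DEWAX), which represses wax synthesis, had 0.26 ± 0.22 (limma adjusted p 0.31, 95% interval -0.2 to 0.71). The defensin gene PDF1.2, induced by jasmonate and ethylene together, had values of 0.57 and 2.94 on the MeJA arrays of 5 and 10 h and none on the SA arrays.

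Of 20 cold and dehydration genes listed, 7 were on the array and 4 were tested, and all 4 were lower under MeJA than under SA, with a median difference of -2.13 (32.2% of all tested genes were lower). KIN2, a small cold-induced protein, read -0.25, -1.39, -2.76 and -4.8 under MeJA and 1.0, 0.35, -0.71 and -1.61 under SA, a difference of -2.06 ± 0.42 (limma adjusted p 0.00026). COR47, a dehydrin, read -1.65, -2.71, -3.84 and -3.91 under MeJA and -0.62, -0.49, -1.2 and -0.98 under SA, a difference of -2.21 ± 0.31 (limma adjusted p 4.2e-06). Both read lower at each later time under MeJA, and KIN2 overlapped between hormones while COR47 did not. RD2, named for its response to desiccation, read -1.39, -1.11, -1.62 and -1.83 under MeJA and 0.72, -0.11, 0.41 and -0.56 under SA, a difference of -1.6 ± 0.29 (limma adjusted p 7.9e-05). RD2 was below -1 on each MeJA array without such a course, and its groups did not overlap. The labels mention high humidity for sprayed plants of both hormones and not for untreated ones, and its part in the values against untreated plants was not tested.

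**Figure D4:**
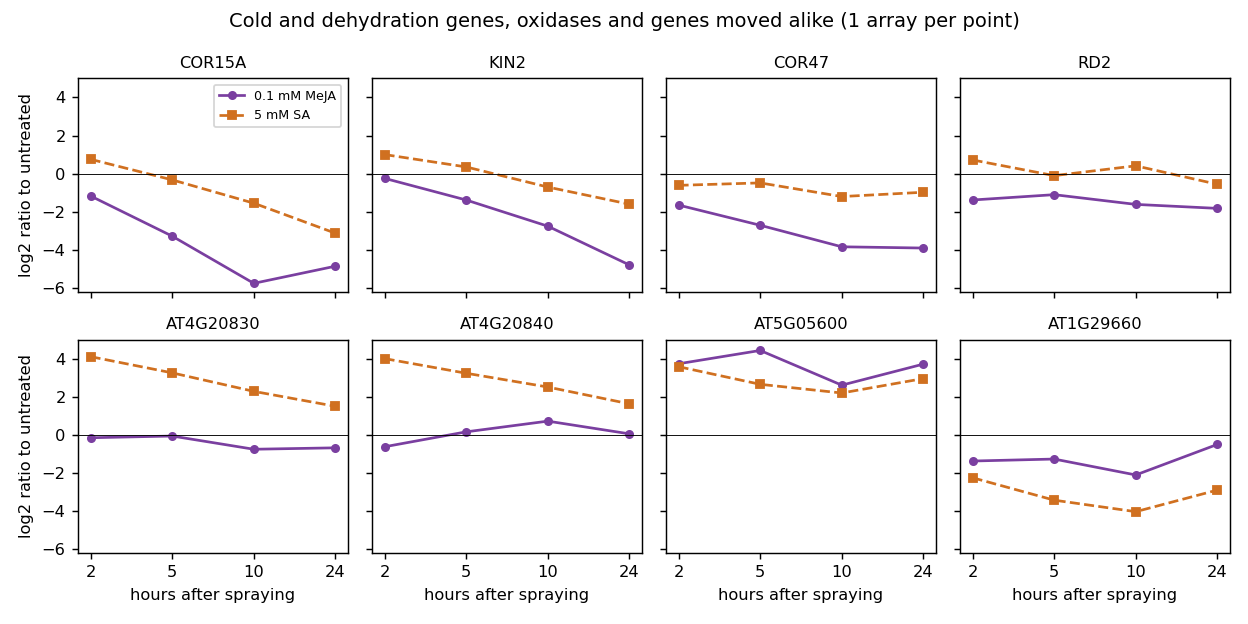
Log2 ratio to untreated plants on each MeJA (solid) and SA (dashed) array at 2, 5, 10 and 24 h (times evenly spaced, not to scale) for 4 cold and dehydration genes (top) and for AT4G20830, AT4G20840, AT5G05600 and AT1G29660 (bottom), with 1 array per point. MeJA lies below SA at every time in the top genes, SA of AT4G20830 and AT4G20840 is highest at 2 h, and AT5G05600 is above 2 on all 8 arrays; the zero line is each array's median, and the MeJA mean of AT4G20830 is above 0 with TUA5 as 0.

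Among 23 genes listed for ER bodies, beta-glucosidases and myrosinase-associated proteins, 6 were tested, and 4 were higher under MeJA than under SA (26.1% of all tested genes were), with none lower. These were PYK10, BGLU22, AT1G52000 and AT1G54010. AT1G52000 and AT1G54010 were also counted in the jasmonate list. Under SA 5 of the 6 fell (35.6% of all tested genes did), but with TUA5 as 0 the SA means of BGLU22, BGLU44, AT1G52000 and AT2G25450 were above 0 and that of PYK10 was -0.04. Of the untested members, BGLU21 read 0.2, 0.69, 0.82 and 1.25 under MeJA and -1.26, -1.11, -1.34 and -0.52 under SA, above 0 on every MeJA array and below on every SA array. Its SA values at 5 and 24 h lay above that of TUA5 on the same array, and those at 2 and 10 h below it. The jacalin-related lectin gene JAL34 read 1.88, 2.83, 2.0 and 1.49 under MeJA and -0.06 and -0.06 under SA at 10 and 24 h. NAI2, a component of ER bodies, read -0.09, 1.54, 1.27 and -0.01 under MeJA and -1.96 and -1.14 under SA at 2 and 10 h. Like PYK10 and BGLU22 it was near 0 at 2 h of MeJA and above 1 at 5 and 10 h.

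Of 18 genes listed for chloroplast, growth and cell wall, 9 were tested. All 9 fell under SA (35.6% of all tested genes did). With TUA5, itself a member, as 0 the SA means of AT1G66180 and AT1G75800 were above 0. On that scale those of AT1G64500 (-0.71) and AT5G44020 (-0.51) did not pass (limma adjusted p 0.078 and 0.1). MeJA was above SA in 5 of the 9 by the test (26.1% of all tested genes), and below it in 0. FUG1, a chloroplast translation initiation factor, read -1.27, -0.75, 0.25 and -1.21 under MeJA and -3.12, -2.93, -2.64 and -1.91 under SA, a difference of 1.9 ± 0.35 (limma adjusted p 8e-05). AT5G44020 read 0.69, 0.23, -1.04 and -1.33 under MeJA and -0.89, -1.49, -2.24 and -2.07 under SA, a difference of 1.31 ± 0.33 (limma adjusted p 0.0016). FUG1 did not overlap between hormones, while AT5G44020 read lower at 10 and 24 h than before under both and did. With TUA5 as 0 the MeJA means of FUG1 and AT5G44020 were 0.17 and 0.56.

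Of 11 tested genes listed for amino acid catabolism, starvation and pyruvate metabolism, 9 rose under SA (37.2% of all tested genes did) and 0 fell. Under MeJA 5 rose and 3 fell (22.2% and 23.9% of all tested genes). Against SA 7 were lower and 1, PPDK, was higher (32.2% and 26.1% of all tested genes). ALDH7B4, a turgor-responsive aldehyde dehydrogenase, read 1.69, 2.13, 2.22 and 1.58 under SA and -0.15, 0.92, -0.6 and 0.06 under MeJA, a difference of -1.85 ± 0.35 (limma adjusted p 0.00012). AT3G29240 read 2.01, 2.2, 2.51 and 1.6 under SA and 0.94, 0.69, 0.36 and 1.62 under MeJA, a difference of -1.18 ± 0.42 (limma adjusted p 0.019). Both were above 1 on every SA array. ALDH7B4 scattered around 0 under MeJA with no overlap, and AT3G29240 rose under both hormones with overlap at 24 h. The difference of AT3G29240 did not pass without the SA 5 h array (limma adjusted p 0.08), without the MeJA 10 h array (0.098) or under 2 of the 4 other scalings.

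The time of the differences was examined with early (2 and 5 h) and late (10 and 24 h) means, fitted without a term for time. Where a value is missing, the means of MeJA and SA cover unlike times. Early, 47 genes differed (26.1%), 17 higher (9.44%) and 30 lower (16.7%) under MeJA, and late 42 did (23.3%), 19 higher (10.6%) and 23 lower (12.8%). With TUA5 as 0 the late count was 12, and uncentred values gave 18 early and 27 late. The 23 genes that differed in both had the same sign in both, and over all 180 genes 150 kept their sign. The late count rests on few arrays, since it was 0 without the SA 10 h array, 21 without the MeJA 24 h array, 5 without the 10 h conditions and 17 without the 24 h conditions. The early count was 22 to 30 when any 1 of its 4 arrays was left out, 11 without the 2 h conditions and 17 without the 5 h conditions. The change from early to late was called in none of the 180 genes by limma, with 12 at an unadjusted p under 0.05 and a lowest adjusted p of 0.37. Without the SA 5 h array 1 gene, AT4G27280, passed. The 95% interval of the change, not adjusted over genes, had a median reach of 1.54 to either side. Larger changes also went uncalled, such as 2.52 in AT4G27280 and 2.61 in GT72B1 (limma adjusted p 0.37 for both). With 1 array per hormone and time, the lack of calls does not show that the differences stayed the same.

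The 12 genes at an unadjusted p under 0.05 had a positive late minus early change in 10 cases. Those given here were named after their values were seen. AT4G27280 read 4.64, 2.97, 1.45 and 0.56 under SA and 0.93, 0.49, 0.38 and 0.49 under MeJA, so that MeJA minus SA went from -3.71 at 2 h to -0.07 at 24 h. AER, an alkenal reductase, read 2.95, 2.3, 1.1 and 0.26 under SA and -0.22, -0.99, 0.02 and -1.2 under MeJA. GT72B1, a glucosyltransferase, read 2.85, 1.75, -0.35 and 0.77 under SA and -0.42, -1.03, -0.76 and 0.35 under MeJA. In all of these SA was highest at 2 h and closer to MeJA at 10 and 24 h, a description that the test did not separate from no change.

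At single times a gene was counted when it passed 1 in size on both arrays, whether or not it had enough values for the fit. At 2 h, 8 of 325 genes (2.46%) passed in opposite directions and 27 (8.31%) in the same direction. At 5 h these were 10 of 303 (3.3%) and 15 (4.95%), and at 10 h 13 of 279 (4.66%) and 16 (5.73%). At 24 h they were 5 of 231 (2.16%) and 21 (9.09%). These are counts of single arrays with no test, and with TUA5 as 0 the opposite counts were 13, 1, 5 and 8 at the 4 times, and uncentred 11, 2, 17 and 8. SA passed 1 in 139, 124 and 124 genes at 2, 5 and 10 h and in 60 at 24 h. MeJA passed in 82, 57, 57 and 78. Among the 180 tested genes, the highest MeJA minus SA value at 2, 5 and 10 h was that of AT3G28220, and at 24 h that of AT3G21670. The lowest was that of AT4G20840 at 2 h, AT5G51830 at 5 h, AT3G15450 at 10 h and AT3G62550 at 24 h.

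Of the genes left out for missing values under other agents, 92 had values at 3 or more times of both hormones. Fitted with the rest, 45 of the 92 differed, 22 higher and 23 lower under MeJA. They added 3 genes raised by MeJA and lowered by SA, 6 of the opposite kind, 2 raised by both and 7 lowered by both. AT1G48210 and BGLU21 are named after their values were seen. AT1G48210 had the lowest difference among the added opposed genes, -3.32 ± 0.33 (limma adjusted p 1.1e-07), with -2.49, -1.4, -1.12 and -1.66 under MeJA and 1.02, 2.44 and 2.04 under SA at 2, 5 and 10 h. Every MeJA value was below -1 and every SA value above 1. BGLU21 was opposed with a difference of 1.8 ± 0.29, THI2.1 had 1.52 ± 0.3 and JAL33 1.14 ± 0.27 (limma adjusted p 5.5e-05, 0.00023 and 0.0025). The SA mean of BGLU21, -1.06, lay above that of TUA5, so it turns above 0 with TUA5 as 0. The cold gene KIN1 had a difference of -2.54 ± 0.34 (limma adjusted p 7.2e-06) and read -1.17, -1.86, -3.85 and -4.3 under MeJA and 1.17, 0.2, -0.61 and -1.76 under SA. COR15B, another cold gene, had SA values of 0.16 and -0.41 at 2 and 5 h only and MeJA values of -4.3, -4.45, -4.77 and -5.67, all below -4. The zinc-finger gene STZ read 4.0 and 2.7 under SA at 2 and 5 h and 1.16 and 0.96 under MeJA at those times.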

How the data were processed

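Two-colour spotted cDNA arrays of Arabidopsis RNA were used. The authors hybridised Cy5-labelled cDNA of sprayed plants with Cy3-labelled cDNA of untreated plants and quantified each spot's median pixel intensity with ScanArray Express, per the labels' protocols. The deposited values were taken as log2 ratios of treated over untreated, a scale inferred from the values, and the authors' normalization is not given in the sources used here. The table held 2560 spots on 27 arrays, of which 884 spots named 1 gene, 0 named several and 1676 were unnamed. The gene symbols come from the platform annotation, which is old, and 415 of 416 genes matched the RefSeq gene table (assembly TAIR10.1). No sequence was used.

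Each array was centred on its median and a gene's spots were averaged. Repeat arrays of the same RNA (for INA and BTH) were averaged to 1 condition. Genes measured in at least 20 of 24 conditions and at 3 of 4 times of each agent were fitted with least squares on agent means and additive time terms, with limma's moderated variances (limma 3.58.1, R 4.3.3) and Benjamini-Hochberg adjustment over 180 genes. The fit used all agents so that they share 1 estimate of the spread. The late minus early fit replaced each agent's mean by early and late means and had no time terms. Where a value is missing, its early or late contrast compares unlike times. The script was tested on simulated data. All tests were two-sided. Named genes were the 10 highest and 10 lowest called differences of 1 sign, up to 8 opposed genes of each kind, 6 shared genes in each direction, the 2 highest and 2 lowest differences at each time, list members, and TUA5. The members and gene lists were chosen with earlier results of these data known. The number of arrays limits the precision, since each hormone and time had 1. Alternatives covered 4 other scalings (uncentred values, TUA5 as 0, 1 median absolute deviation and quantile normalization), the filter, repeat arrays, the model and leaving out conditions or arrays.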

Additional observations from a re-analysis of the deposited data

Results flagged for a closer look

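The following 6 genes had MeJA minus SA of 1 sign on both early arrays (2 and 5 h) and of the opposite sign on both late arrays (10 and 24 h). In all 6 the change from early to late did not pass limma's test, so the change of sign is a description of single arrays. FDH had a late minus early change of -0.71 ± 0.80 (SE; adjusted p 0.95) and AT3G61260 one of -0.93 ± 0.63 (adjusted p 0.82), both being genes that the hormones moved together. EIN3, the ethylene transcription factor, went from 0.36 and 0.27 early to -0.82 and -0.57 late, a change of -1.01 ± 0.57 (adjusted p 0.74). AT1G78830 had a change of -1.22 ± 0.86 (adjusted p 0.82). AT1G60730 and AT1G28240 went the other way, by 1.01 ± 0.64 and 0.45 ± 0.52 (adjusted p 0.79 and 0.95).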

How the results depend on the processing

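The count of differing genes, 105, was 75 in uncentred values (13 higher, 62 lower), 101 with TUA5 as 0 (36 and 65), 82 without a term for time, and 84 to 105 with conditions or arrays left out. Opposed genes numbered 10 uncentred, 9 with TUA5 as 0, 8 without a time term and 12 to 21 with arrays left out. Shared genes numbered 96 with TUA5 as 0, 25 without a time term and 28 to 42 with arrays left out. Early differences numbered 18 uncentred, 79 among the 272 genes filtered on both hormones alone, and 11 to 55 with arrays left out. Late differences numbered 27 uncentred, 12 with TUA5 as 0, and 0 to 46 with arrays left out. The late minus early change was called in 0 to 1 genes with arrays left out. Single-time opposite counts at 2, 5, 10 and 24 h were 13, 1, 5 and 8 with TUA5 as 0, and 2, 0, 3 and 0 at a threshold of 1.5, while uncentred values gave 2 at 5 h and 8 at 24 h. The cause of these shifts was not tested.

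The 10 highest and 10 lowest called differences of 1 sign kept their call and direction in every leave-one-out fit and under the 4 other scalings. Among named genes, COR15A (adjusted p 0.079), KIN2 (0.11), AT2G25510 (0.054) and AT5G44020 (0.05) lost their calls without a time term, and AT5G35735 could not be fitted on the 8 arrays alone. Over 48 named genes and 24 alternatives, 15 of 1135 values turned sign, none of a called difference. Uncentred values turned AT5G61590 (-0.24) and TUA5 (-0.26). Scaling to 1 median absolute deviation turned AT1G66760 (0.207), FDH (0.235), AT3G20820 (-0.038) and TUA5 (-0.0916), and quantile normalization turned AT1G66760 (0.0707) and FDH (0.0769). With conditions or arrays left out, AT1G66760 ran from -0.516 to 0.0357, FDH from -0.277 to 0.177, AT3G61260 from -0.374 to 0.148 and EIN3 from -0.423 to 0.0167. Values above 0 came without the 10 h conditions in all 4, without the MeJA 10 h array in FDH and AT3G61260, and without the SA 24 h array in FDH. By replicate number, no paired analysis was possible because the MeJA and SA arrays all carry number 1. The arrays do pair by time, and the paired fit of the 8 arrays with time as a block gave 90 differences, 17 opposed and 31 shared genes. Early and late means of the same 8 arrays, fitted without a time term and so not paired, gave 50 early and 46 late differences.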

Other observations

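Unnamed spots also separated the hormones. Fitted spot by spot, 872 unnamed spots were tested, and MeJA minus SA was called higher in 241 and lower in 215 of them (52.3%), beside 50.9% of 385 named spots. Their differences ran from -4.60 to 5.83, and the highest exceeded that of any named spot (4.73). Their genes are not analysed here.

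Among genes outside the fit across all agents, UGT73B3, a glucosyltransferase, had the lowest MeJA minus SA value of any named gene at 2 h, -4.72. This gene was chosen after its values were seen.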
